A study of Mus musculus with 13 samples.

Results

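The glucocorticoid axis of the glomerulus was described through 7 genes chosen by symbol from the 35967 genes of the deposited expression table: the receptors *Nr3c1* and *Nr3c2*, the hormone-activating enzyme *Hsd11b1*, and the hormone-induced genes *Fkbp5*, *Tsc22d3*, *Zbtb16* and *Sgk1*. The samples were kidney glomeruli of wildtype Balb/c mice, 1 RNA-Seq library per mouse, after an intraperitoneal injection of 2 mg rabbit IgG. Control mice (n = 5) received preimmune IgG, and mice with experimental membranous nephropathy (MN) received IgG against THSD7A, a podocyte surface protein, and were killed at day 1 (n = 4) or day 5 (n = 4). Control mice of both days form a single group in the labels, without the day of each mouse. MN was induced in male mice at an age of 14 to 15 weeks, and glomeruli were collected on magnetic beads perfused through the kidney.

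Glucocorticoids act through *Nr3c1*, the glucocorticoid receptor, which rests in the cytoplasm in a complex with HSP90 chaperones and, once it binds hormone, enters the nucleus and binds DNA as a dimer. *Nr3c2*, the mineralocorticoid receptor, binds aldosterone and also glucocorticoids. *Hsd11b1* regenerates active corticosterone from its inert 11-keto form inside cells. *Fkbp5*, *Tsc22d3* and *Zbtb16* are classical transcripts raised by the hormone in many tissues, and *Sgk1* encodes a kinase induced by glucocorticoids and mineralocorticoids and by other signals. In the glomerulus, podocytes carry the receptor, and glucocorticoids are a long-standing treatment of glomerular disease.

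Expression was given as TPM, in which the reads of a gene are divided by its length and scaled to the same total in every library, so levels of different genes can be set side by side. In the control mice *Sgk1* was the most abundant member with 1272 ± 74.8 TPM (mean ± SD, n = 5). It was followed by *Tsc22d3* with 210.1 ± 54.9, *Nr3c1* with 86.5 ± 5.29, *Fkbp5* with 65.2 ± 35.2 and *Zbtb16* with 39.1 ± 29.8 TPM. *Nr3c2* reached 12.2 ± 3.71 TPM, and *Hsd11b1* was the least abundant with 2.22 ± 1.12 TPM. The control libraries of *Nr3c1*, *Fkbp5*, *Zbtb16* and *Nr3c2* overlapped between neighbors in this order, whereas *Sgk1*, *Tsc22d3* and *Hsd11b1* were each separated from their neighbors in every control mouse.

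None of the 7 members was called different between groups in any of 3 comparisons by limma, where a call needed a Benjamini-Hochberg adjusted p below 0.05 and a log2 fold change beyond 0.5 in either direction. All 7 passed the filter on low values. Among the 14322 genes tested, 0.0908% were called at day 1 against control, 3.21% at day 5 against control and 1.81% at day 5 against day 1. With an unadjusted p under 0.05 there were 2 members at day 1 (*Hsd11b1* and *Sgk1*, against 12.6% of all genes), 1 at day 5 (*Sgk1*, against 20.1%) and 1 between the days (*Hsd11b1*, against 15.5%). The libraries of the compared groups were separated without overlap for 0 members at day 1, where 4.22% of all genes were. At day 5 this held for 1 member, *Sgk1*, against 10.8% of all genes, and for 0 members between the days, against 11.0%. The comparisons with control share the control libraries and are therefore not independent of each other.

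**Figure D1:**
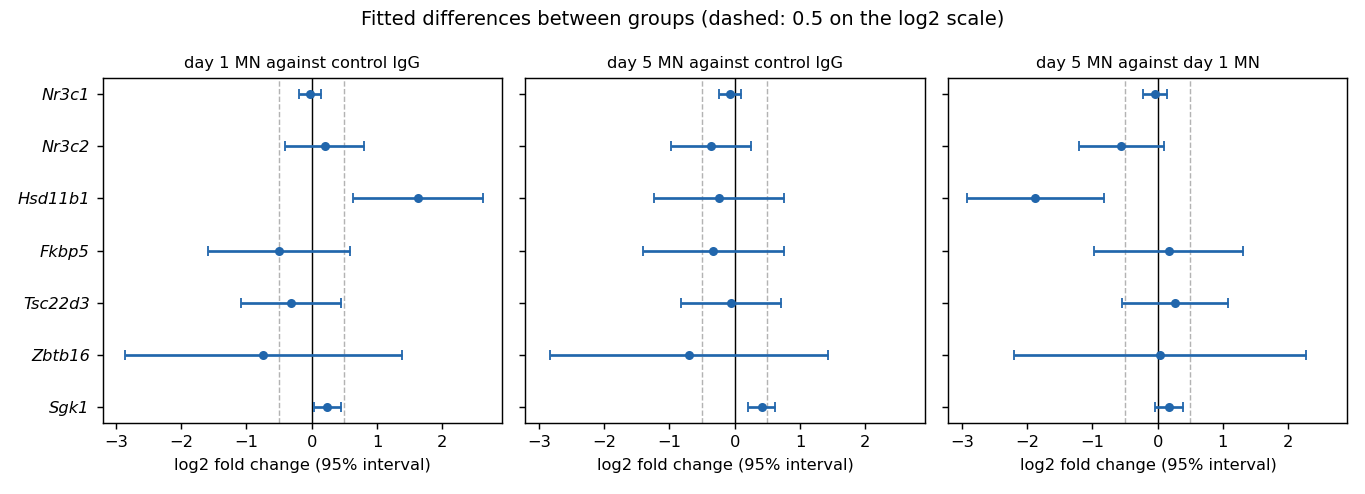
Log2 fold change (x axis) of each of the 7 genes (y axis) in the 3 comparisons, from the limma fit on log2(scaled TPM + 0.5). Points are estimates, bars are 95% intervals, and dashed lines mark 0.5 in either direction. The intervals of *Nr3c1* and *Sgk1* are narrow, those of *Zbtb16* are the widest, and *Hsd11b1* lies to the right at day 1 and to the left between the days.

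The samples held glomerular RNA with some tubular RNA. Summed TPM of 7 podocyte markers lay between 6547 and 8863 in all libraries, that of 6 endothelial markers between 4319 and 5462, and none of the markers was at 0 in every library. Summed TPM of 8 proximal tubule markers was 2268 to 8226 in control, 3955 to 7201 at day 1 and 2926 to 3547 at day 5, with control replicate 5 the highest of all. Summed TPM of 8 markers of the loop, distal tubule and collecting duct was 288.0 to 585.0 in control, 581.2 to 1028 at day 1 and 398.2 to 536.9 at day 5. In bulk glomeruli fewer cells of a type and less RNA per cell cannot be told apart.

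*Nr3c1* was the steadiest member. In TPM, the control mice had 85.8, 95, 87.4, 82.7 and 81.6, the day 1 mice 82.96, 75.5, 99.9 and 71.4, and the day 5 mice 72.2, 79.8, 83.1 and 85.5. The ranges of all 3 groups overlapped, and day 1 replicate 3 was the highest library. The log2 fold change was -0.03 at day 1 (SE 0.079, 95% interval -0.20 to 0.14, adjusted p = 0.906) and -0.08 at day 5 (SE 0.079, -0.24 to 0.09, adjusted p = 0.671). The intervals at both days lie inside 0.5 on the log2 scale. The within-group SD on the log2 scale was 0.12, and 28.0% of the tested genes had a smaller SD. The gene lies on the minus strand of chromosome 18 (GRCm39, 39543598 to 39652474).

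*Nr3c2* overlapped among all 3 groups. Its TPM values were 9.97, 14.1, 15.4, 14.8 and 6.81 in control, 8.31, 11.3, 20.6 and 14.98 at day 1, and 6.16, 10.4, 13.3 and 7.02 at day 5. Day 1 replicate 3 was again the highest library, and day 5 replicate 1 the lowest. The log2 fold change was 0.20 at day 1 (95% interval -0.42 to 0.81, adjusted p = 0.826), -0.36 at day 5 (-0.97 to 0.25, adjusted p = 0.543) and -0.55 between the days (-1.20 to 0.09, adjusted p = 0.402). The intervals leave room for differences larger than 0.5 at either day. *Nr3c2* lies on chromosome 8 (GRCm39, 77625576 to 77971863, plus strand).

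*Hsd11b1* had the largest day 1 estimate of the 7 members. Its TPM values were 2.37, 1.72, 3.92, 0.863 and 2.23 in control, 6.53, 12.0, 3.43 and 9.41 at day 1, and 0.905, 0.711, 1.62 and 4.99 at day 5. At day 1, 3 of 4 mice were above all control mice, and replicate 3 lay below the highest control. At day 5, replicate 4 stood above the other mice of its group and above all control mice. The log2 fold change at day 1 was 1.63 (SE 0.463, 95% interval 0.63 to 2.63), which did not pass the adjustment (adjusted p = 0.233). At day 5 it was -0.24 (SE 0.463, 95% interval -1.24 to 0.75, adjusted p = 0.834). Between the days it was -1.88 (SE 0.488, 95% interval -2.93 to -0.82, adjusted p = 0.0658). This last difference passed in 2 of 13 fits that left out a library: without day 1 replicate 3 it was -2.20 (adjusted p = 0.0380), and without day 5 replicate 4 it was -2.33 (adjusted p = 0.0158).

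Tubular markers differed with the same sign as *Hsd11b1* at day 1. All 8 proximal markers had a higher mean at day 1 than in control, with a median log2 fold change of 0.71 and 0 of 8 called (6 with an unadjusted p under 0.05). All 8 markers of the later tubule did so too, with a median of 0.75 and 1 of 8 called, *Pvalb* of the distal convoluted tubule (1.43, adjusted p = 0.0395). With a tubular marker score as a covariate, the log2 fold change of *Hsd11b1* was 1.27 at day 1 (adjusted p = 0.665) and -1.49 between the days (adjusted p = 0.589). Over all tested genes this fit called 0 at day 1, against 13 in the main fit, and 100 between the days, against 259. Control replicate 5 had the highest tubular sum, 8799 TPM over 16 markers, with 2.23 TPM of *Hsd11b1*, while day 1 replicate 2 had 7899 and 12.0 TPM. With group means removed, the median Pearson r of *Hsd11b1* was 0.19 with the 8 proximal markers and 0.18 with the 8 later ones. In both lists, 0 markers had an r above 0.6. *Hsd11b1* lies on chromosome 1 (GRCm39, 192903918 to 192946489, minus strand), and *H6pd*, whose product supplies the cofactor of this enzyme, had a log2 fold change of 0.07 at day 1 (adjusted p = 0.827).

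**Figure D2:**
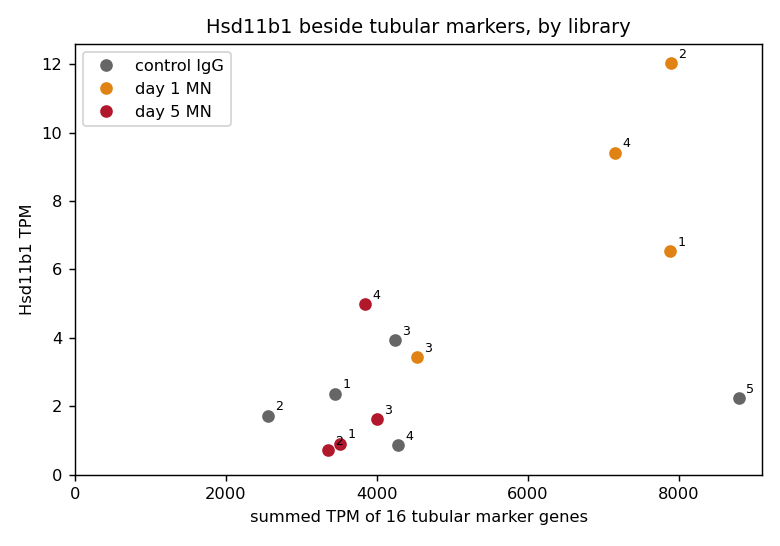
*Hsd11b1* in TPM (y axis) against the summed TPM of 16 tubular marker genes (x axis), 1 point per library, numbered by replicate. Day 1 replicates 1, 2 and 4 are high on both axes, day 5 mice lie at the lower left, and control replicate 5 combines the highest marker sum with 2.23 TPM of *Hsd11b1*.

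**Figure D3:**
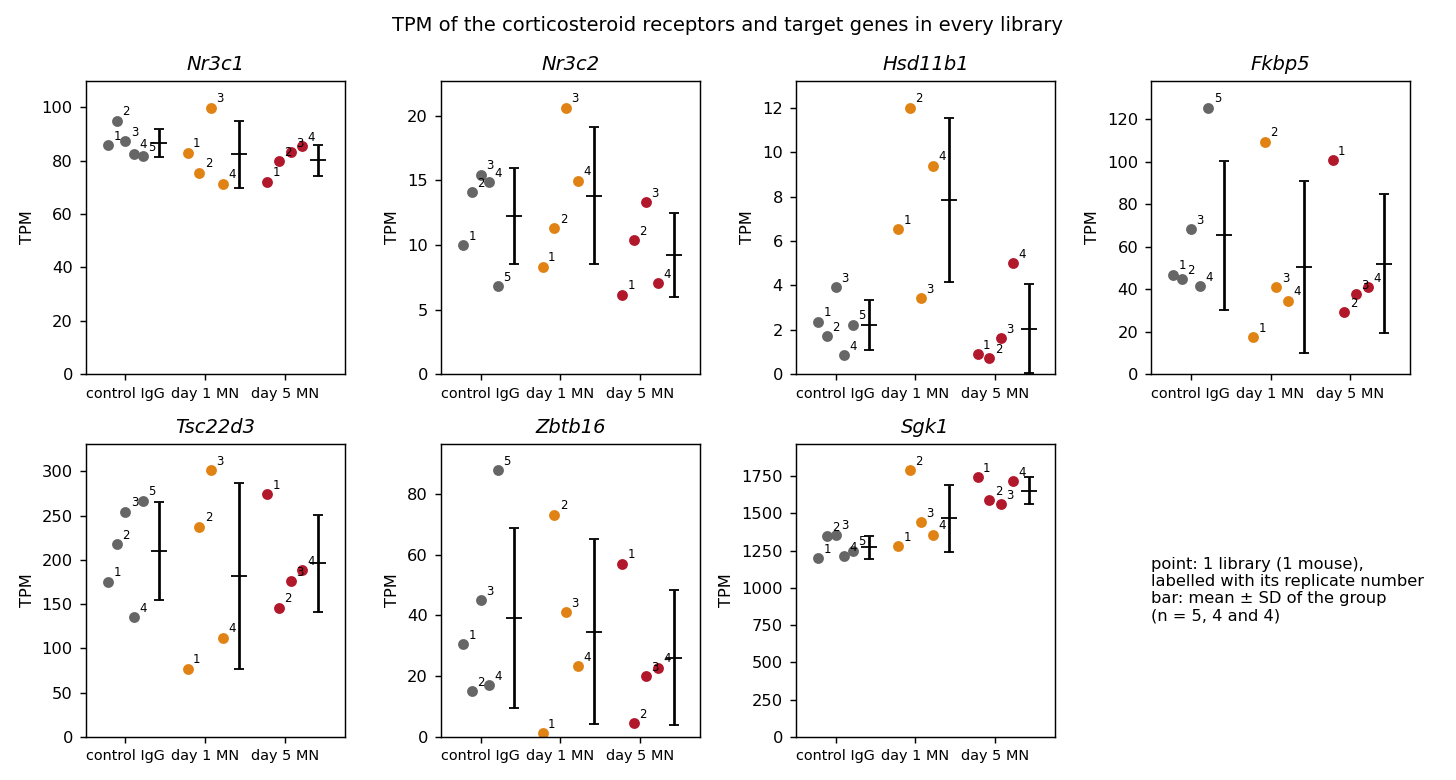
TPM (y axis) of the 7 genes in every library by group (x axis), with replicate numbers beside the points and black bars for the mean ± SD of 5, 4 and 4 mice. *Fkbp5* and *Zbtb16* are highest in control replicate 5, day 1 replicate 2 and day 5 replicate 1, whereas *Sgk1* at day 5 lies above all control mice.

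The 4 hormone-induced genes differed in their spread among mice. *Fkbp5* encodes an HSP90 cochaperone that lowers the receptor's affinity for hormone. Its TPM values were 46.8, 44.6, 68.1, 41.4 and 125.3 in control, 17.4, 109.4, 40.9 and 34.5 at day 1, and 100.6, 29.1, 37.6 and 40.8 at day 5. Each group held 1 mouse far above the others: control replicate 5, day 1 replicate 2 and day 5 replicate 1. Its log2 fold change was -0.50 at day 1 (SE 0.503, 95% interval -1.58 to 0.59, adjusted p = 0.719) and -0.33 at day 5 (SE 0.503, -1.41 to 0.76, adjusted p = 0.791). The within-group SD was 0.86, larger than that of 96.5% of the tested genes.

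*Zbtb16* encodes the zinc finger repressor PLZF and was the most variable member. Its TPM values were 30.5, 15.1, 44.99, 17.1 and 87.8 in control, 1.154, 73.2, 41.2 and 23.4 at day 1, and 57.1, 4.52, 19.9 and 22.8 at day 5. The highest mouse of each group was the same as for *Fkbp5*, and the highest was 5.81 times the lowest in control, 63.4 times at day 1 and 12.6 times at day 5. Fitted log2 fold changes were -0.74 at day 1 (SE 0.986, 95% interval -2.87 to 1.38, adjusted p = 0.797) and -0.70 at day 5 (SE 0.986, -2.83 to 1.42, adjusted p = 0.769). A group difference of several-fold in either direction thus lay within the interval. Its within-group SD of 1.69 ranked 72 from the top of 14322 genes, whose median SD was 0.17.

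*Tsc22d3* encodes GILZ, a leucine zipper protein that carries anti-inflammatory actions of glucocorticoids. In TPM it had 175.3, 218.0, 254.5, 135.5 and 267.0 in control, 76.8, 237.4, 301.2 and 112.2 at day 1, and 274.3, 146.2, 176.0 and 188.2 at day 5. The highest mouse was the same as for *Fkbp5* in control and at day 5, while at day 1 it was replicate 3. In the fit, the log2 fold change was -0.32 at day 1 (SE 0.356, 95% interval -1.09 to 0.44, adjusted p = 0.746) and -0.06 at day 5 (SE 0.356, -0.83 to 0.71, adjusted p = 0.957). Its within-group SD was 0.61, larger than in 93.3% of the tested genes.

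*Sgk1*, the serum- and glucocorticoid-regulated kinase, was the only member with an adjusted p under 0.05 against control, at day 5. Its TPM values were 1198, 1346, 1357, 1211 and 1249 in control, 1280, 1790, 1440 and 1357 at day 1, and 1744, 1589, 1563 and 1718 at day 5. All 4 day 5 mice were above all 5 control mice, and day 1 replicate 2 was the highest library. The log2 fold change was 0.41 at day 5 (SE 0.094, 95% interval 0.21 to 0.62, adjusted p = 0.0186), 1.33-fold, which stays under the fold change of a call. At any fold change, 6.12% of all tested genes had an adjusted p under 0.05 at day 5. At day 1 the log2 fold change was 0.24 (95% interval 0.04 to 0.44, adjusted p = 0.334), and the direct comparison of the days gave 0.17 (-0.04 to 0.39, adjusted p = 0.439). The within-group SD of 0.15 was smaller than the median of all tested genes.

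The day 5 difference of *Sgk1* missed an adjusted p of 0.05 without day 5 replicate 1 (0.37, adjusted p = 0.0697), replicate 2 (0.42, adjusted p = 0.0520) or replicate 4 (0.40, adjusted p = 0.0521). The fitted difference at day 5 was above 0 for all 6 endothelial markers, with a median log2 fold change of 0.19 and 0 called, and *Emcn* among them had 0.29 (adjusted p = 0.0127). Summed endothelial markers were 4325 to 5462 TPM in control and 5122 to 5431.4 at day 5. For mesangial markers the fitted difference was above 0 for 5 of 6, with a median of 0.12 and 0 called, *Serpine2* had 0.42 (adjusted p = 0.0113), and their sums were 1634 to 2362 TPM in control and 2285 to 2663 at day 5. With an endothelial marker score as a covariate the *Sgk1* difference was 0.33 (adjusted p = 0.252). It was 0.38 with a podocyte marker score (adjusted p = 0.0541) and 0.44 with a mesangial marker score (adjusted p = 0.0519). Over all tested genes these fits called 212, 416 and 319 at day 5, against 460 in the main fit. With a score of the 3 members *Fkbp5*, *Tsc22d3* and *Zbtb16* as a covariate the *Sgk1* difference was 0.45 (adjusted p = 0.00277). Within groups of the same libraries, these 3 members had an r of 0.81, 0.69 and 0.64 with *Sgk1*. The score was chosen after the data were seen, so the smaller adjusted p is no separate test of the difference.

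The receptor dimer binds an inverted repeat, and the letters of its perfect form, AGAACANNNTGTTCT, were searched on both strands of GRCm39 from 5 kb before the canonical start site to the end of each gene. Only 2 members held a match, and the sites are shown to give the DNA context of these members, with 7 bases on each side, 5′ to 3′ on the gene's strand and the matched letters in capitals. The first lies in intron 5 of *Fkbp5* (chr17:28639295-28639309, minus strand) and the second in its intron 1 (chr17:28661393-28661407, minus strand). The third lies upstream of *Sgk1*, starting at position -965 relative to its canonical start site (chr10:21869600-21869614, plus strand), in a stretch that longer annotated transcripts of *Sgk1* span.
Fkbp5 intron 5: cacattcAGAACAGGGTGTTCTgtgctct
Fkbp5 intron 1: ttgtttgAGAACAGCTTGTTCTaggcttt
Sgk1 upstream: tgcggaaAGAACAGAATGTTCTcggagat

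Matches of these 15 letters were rare. Within 5 kb before the start site they occurred in 7 of 13917 tested genes with a single locus (0.0503%), *Sgk1* among them, and within the gene body in 1.27%. Among 1064 tested genes whose body was 0.8 to 1.25 times as long as that of *Fkbp5*, 2.54% held a match and 0% held 2 or more. *Tsc22d3*, *Zbtb16* and the other members had no match of these letters in the windows searched. Of the other glucocorticoid-induced genes described below, only *Angptl4* held a match, in its body. The genes that shared an upstream match with *Sgk1* were *Cap2*, *Erp44*, *Pcyox1*, *Plk3*, *Ttc12* and *Ttc21b*, none of them on that list. Whether the receptor occupies any of these sites was not measured.

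Among mice of the same group, 4 of the 6 pairs of hormone-induced genes varied together past the adjustment. For this, the deviation of each library from its group mean was taken on the log2 scale, and 21 pairs of members were compared over 13 libraries by two-sided permutation within groups. *Fkbp5* and *Zbtb16* had a Pearson r of 0.88 (permutation p = 0.00130, adjusted p = 0.0143) and a Spearman rho of 0.98 (permutation p = 5.0e-05, adjusted p = 0.00105). *Tsc22d3* and *Zbtb16* had an r of 0.84 (permutation p = 0.00136, adjusted p = 0.0143) and a rho of 0.81 (permutation p = 0.00167, adjusted p = 0.0117). *Fkbp5* and *Tsc22d3* had an r of 0.79 (permutation p = 0.00431, adjusted p = 0.0300) and a rho of 0.84 (permutation p = 0.000920, adjusted p = 0.00966). *Fkbp5* and *Sgk1* had an r of 0.81 (permutation p = 0.00571, adjusted p = 0.0300) and a rho of 0.69 (permutation p = 0.0260, adjusted p = 0.109).

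The remaining pairs of these genes did not pass the adjustment. *Tsc22d3* and *Sgk1* had an r of 0.69 (permutation p = 0.0345, adjusted p = 0.145) and a rho of 0.72 (permutation p = 0.0135, adjusted p = 0.0707), and *Zbtb16* and *Sgk1* an r of 0.64 (permutation p = 0.120, adjusted p = 0.421) and a rho of 0.59 (permutation p = 0.0712, adjusted p = 0.249). Without the 2 libraries farthest from the median of the first gene, r was 0.86 for *Fkbp5* and *Zbtb16*, 0.77 for *Tsc22d3* and *Zbtb16*, 0.74 for *Fkbp5* and *Tsc22d3* and 0.59 for *Fkbp5* and *Sgk1*. Of the 21 pairs, 4 passed an adjusted p of 0.05, and leaving out 1 library at a time left 1 to 4. It left 1 pair without day 1 replicate 1, and 2 pairs without control replicate 1, 4 or 5, day 1 replicate 4, or day 5 replicate 1, 2 or 4. By pair, *Fkbp5* and *Zbtb16* passed in 12 of these 13 tests and *Tsc22d3* and *Zbtb16* in 11. *Fkbp5* and *Tsc22d3* passed in 5, *Fkbp5* and *Sgk1* in 4, and *Tsc22d3* and *Sgk1* in 2. Without the 3 libraries highest in *Fkbp5*, 0 pairs passed, and *Fkbp5* and *Zbtb16* had an r of 0.95 (permutation test, adjusted p = 0.0514). Without scaling between libraries, 2 pairs passed.

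**Figure D4:**
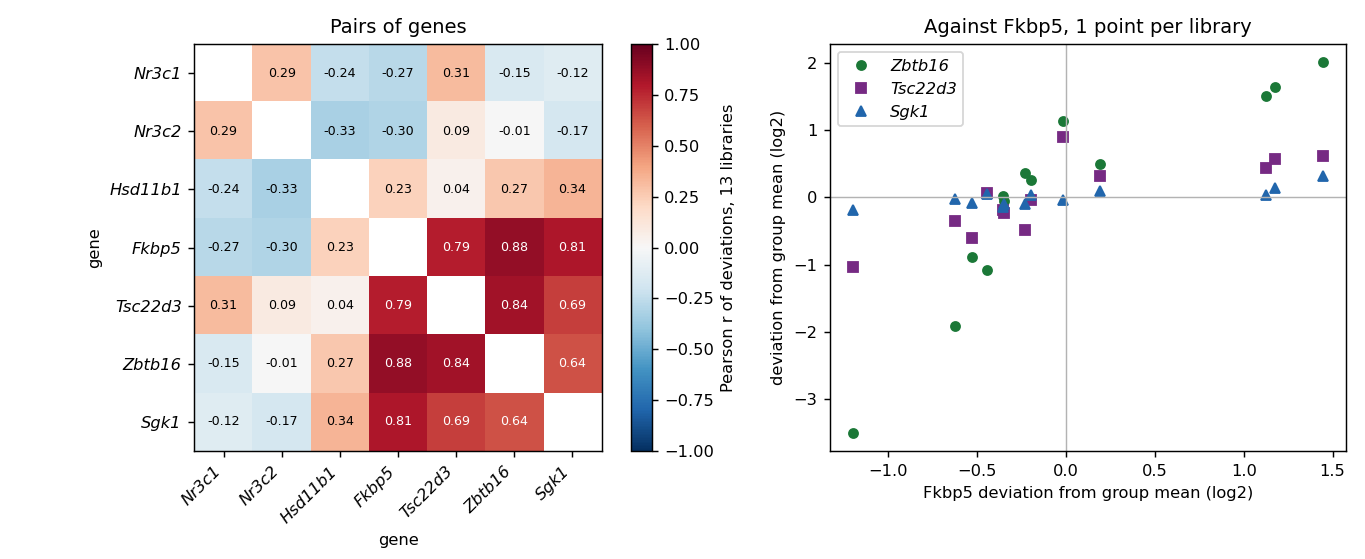
Left, Pearson r between the deviations of each pair of genes from their group means over 13 libraries. Right, the deviations of *Zbtb16*, *Tsc22d3* and *Sgk1* (y axis, log2) against that of *Fkbp5* (x axis, log2), 1 point per library. Pairs of the 4 hormone-induced genes have r from 0.64 to 0.88, of which 4 of 6 pass the adjustment, and pairs with the receptors or *Hsd11b1* stay between -0.33 and 0.34.

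The deviations of the receptors and of *Hsd11b1* did not track these genes to a degree that passed the test. Over the 15 pairs that include *Nr3c1*, *Nr3c2* or *Hsd11b1*, r was between -0.33 and 0.34, rho between -0.45 and 0.40, and the lowest permutation p was 0.315 (adjusted p = 0.808). *Nr3c1* had an r of -0.27 with *Fkbp5* and of 0.31 with *Tsc22d3*. Without the 2 libraries farthest from the median of *Nr3c1*, r was -0.59 with *Fkbp5* and reversed to -0.31 with *Tsc22d3*. With 13 libraries, moderate correlations of these pairs cannot be told from none.

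Many of the other glucocorticoid-induced genes, but not all, had deviations like those of the 4 members. Of 30 listed genes 28 were tested, and *Lcn2* and *Tat* stayed under the filter. The deviations of 20 of 28 correlated with those of *Fkbp5* at an r above 0.6 (71.4%, against 6.26% of all tested genes). For *Tsc22d3* this held for 19 (67.9%, against 7.56%), for *Zbtb16* for 17 (60.7%, against 5.36%) and for *Sgk1* for 15 (53.6%, against 6.04%). For *Nr3c1* it held for 1 (3.57%, against 4.40%), and for *Hsd11b1* for 1 (3.57%, against 1.22%). These counts are a description without a test, since all genes were measured in the same libraries.

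Named examples show the range within the list. With *Fkbp5*, r was 0.94 for *Fam107a*, 0.89 for the kinase gene *Map3k6*, 0.86 for the transcription factor gene *Klf9*, 0.71 for *Ddit4*, an inhibitor of mTOR signaling, and 0.68 for the clock gene *Per1*. For *Cdkn1c* it was 0.05, for *Mt1* 0.12, and for *Mt2* and *Mertk* 0.21. In day 1 replicate 1, the deviation from the group mean on the log2 scale was -1.20 for *Fkbp5*, -3.496 for *Zbtb16*, -1.25 for *Fam107a* and -0.51 for *Klf9*. In day 1 replicate 2 the deviations of these genes were 1.44, 2.01, 1.11 and 0.69.

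**Figure D5:**
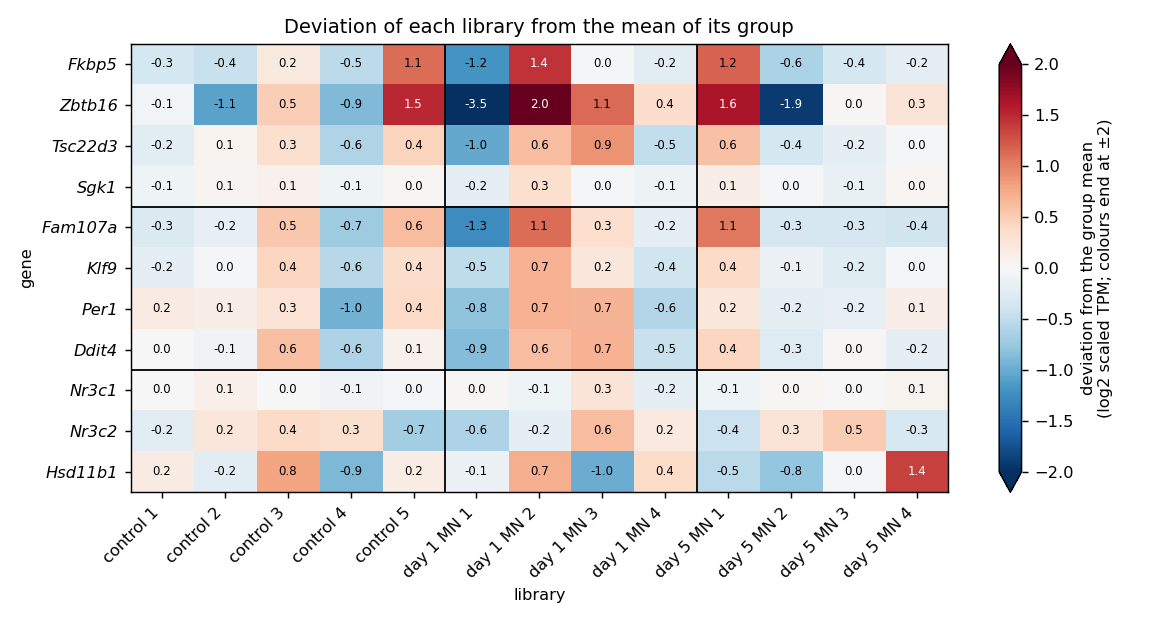
Deviation of each library (x axis) from the mean of its group for 11 genes (y axis), in log2 units of scaled TPM, with red above and blue below the mean. Hormone-induced genes form the upper and middle blocks. They are mostly red together in control replicates 3 and 5, day 1 replicates 2 and 3, and day 5 replicate 1. They are mostly blue together in control replicate 4, day 1 replicate 1 and day 5 replicate 2. The lower block with the receptors and *Hsd11b1* follows no such order.

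Between groups, 1 of the 28 other glucocorticoid-induced genes was called, at day 5, where 3.21% of all tested genes were called. *Cdkn1c*, a cyclin-dependent kinase inhibitor of mature podocytes, rose from 1245 ± 151.0 TPM in control to 1997 ± 171.0 at day 5 (log2 fold change 0.72, adjusted p = 0.000708). *Anxa1* passed the adjusted p but not the fold change at day 5 (0.38, adjusted p = 0.00864), and so did *Cdkn1c* (0.45, adjusted p = 0.0400) and *Mt1* (-0.47, adjusted p = 0.00251) between the days. The median log2 fold change of the list was -0.02 at day 1 and -0.04 at day 5, where that of all tested genes was -0.0029 and -0.0032. At day 1, 0 genes of the list were called, against 0.0908% of all tested genes. In the limma fit 5 of the 28 had an unadjusted p under 0.05 at day 1, against 12.6% of all tested genes.

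The machinery around the receptor held no called gene. Of 14 chaperones and cochaperones 0 were called at day 1 or day 5, with 0 and 1 genes at an unadjusted p under 0.05, and the median log2 fold change was -0.18 and -0.09. The largest day 5 estimates were -0.21 for *Fkbp4*, -0.21 for *Bag1*, which passed the adjusted p alone (0.0253), -0.18 for *Hsp90aa1* and -0.17 for *Hsp90ab1*. Of 13 coregulators 0 were called, with 3 genes at an unadjusted p under 0.05 at each day, and 12 of 13 had a lower mean at day 1 and 10 of 13 at day 5. *Ep300* had -0.24 (adjusted p = 0.221) and *Med1* -0.22 (adjusted p = 0.268) at day 5. Of 7 tested genes for steroid handling 0 were called, with 2 and 0 at an unadjusted p under 0.05. Over all tested genes, 12.6% had an unadjusted p under 0.05 at day 1 and 20.1% at day 5.

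Targets of the mineralocorticoid receptor, which act in the distal nephron, had a median log2 fold change of 0.72 at day 1 and of -0.68 between the days, with 0 of 11 called in either. An unadjusted p under 0.05 was reached by 6 of them at day 1, against 12.6% of all tested genes, and by 8 between the days, against 15.5%. The fitted difference was below 0 for all 11 between the days. *Scnn1a*, a subunit of the epithelial sodium channel, had 4.04 TPM in control, 7.89 at day 1 and 4.85 at day 5 (day 1 log2 fold change 0.91, adjusted p = 0.0846). *Slc12a3*, the thiazide-sensitive transporter, is also among the distal tubule markers and had 1.40 at day 1 (adjusted p = 0.130). The sums of distal tubule markers given above moved with this list, and their part in it was not tested. Among 9 family relatives of the members, such as *Sgk2*, *Sgk3* and *Tsc22d1*, 0 were called, with 1 at an unadjusted p under 0.05 in each comparison.

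Immediate early genes, which *Sgk1* joins as a rapidly induced transcript, held 2 called genes of 9 at each day. Over all tested genes, 0.0908% were called at day 1 and 3.21% at day 5. *Egr1* was called at both (0.94, adjusted p = 0.0271 at day 1, and 0.65, adjusted p = 0.0162 at day 5), *Fosb* at day 1 (1.37, adjusted p = 0.0395) and *Junb* at day 5 (0.51, adjusted p = 0.0175). Their deviations and those of *Sgk1* had an r above 0.6 for 1 gene of 9.

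The genes most alike each member over all 13 libraries, by Pearson r of log2 values with the group differences kept, were named as a description. *Fkbp5* was most like *Ttc39c* (r = 0.94), *Hpcal1* (0.94) and *Fam107a* (0.92). *Tsc22d3* was most like *Sos2* (0.95), *Jade2* (0.95) and *Mcl1* (0.95), and *Zbtb16* most like *P4ha2* (0.93), *Ganab* (0.91) and *Lancl3* (0.91). *Sgk1* was most like *Fjx1* (0.94), *Adgrl4* (0.91) and *Nostrin* (0.91), of which *Adgrl4* and *Nostrin* are known from endothelial cells. With group means removed, the median r of *Sgk1* with the 6 endothelial markers was 0.25 (-0.27 to 0.88), and 1 of 6 was above 0.6. *Hsd11b1* was most like *Odc1* (0.90), *Acsm3* (0.88) and *Mt1* (0.87). *Nr3c1* was most like *Orc4* (0.90), *Cped1* (0.88) and *Six5* (0.88), and *Nr3c2* most like *Dvl1* (0.85), *Zxdc* (0.84) and *Neil2* (0.83).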

How the data were processed

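The authors trimmed reads (FastQC 0.11.9, Trimmomatic 0.39), quantified them with kallisto 0.46.2 against GRCm39 and deposited TPM, 1 value per gene symbol and library. Read counts were not used here, so depth is unknown and no counting interval is given. Groups and replicate numbers come from the labels. Each library was scaled by its median ratio to the geometric mean library (factors 0.955 to 1.04), and log2(value + 0.5) was analyzed, which understates fold changes of low genes. The filter kept genes reaching 1 TPM in 4 or more libraries. All 13 libraries entered 1 fit by limma (version 3.58.1, R 4.3.3; eBayes with a trend), in place of the study's count test. The script was tested on simulated data.

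Members and lists were chosen with earlier results of these data known. Of each list, called genes or else up to 4 genes with the largest day 5 difference were named, plus examples chosen after their values were seen. Pairs of members were tested with 100000 permutations (scipy 1.17.1). Gene positions and motif matches come from the GRCm39 genome and its GENCODE annotation, the build the submitters name.

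Replicate numbers label different mice. Alternatives covered pseudocounts, scaling, filters, fit options, marker scores as covariates, a replicate block and each library left out. The endothelial, mesangial and glucocorticoid-target scores, the fit without the 3 libraries highest in *Fkbp5*, and the unscaled pairs were chosen after seeing the data.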

Additional observations from a re-analysis of the deposited data

Results flagged for a closer look

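*Fkbp5* in day 5 MN replicate 1 had 101 TPM (100.6), while the other 3 mice of its group had 29.1 to 40.8 TPM. In TPM, this mouse lay farther from the nearest of the others than Dixon's 95% limit for 4 values allows. On the log2 scale used for the tests, its deviation from the group mean was 1.17 and those of the others -0.63 to -0.20. The limit was not applied on that scale. It was the only such sample in 21 series of 1 member in 1 group, and chance flags about 1 in 20. *Zbtb16* and *Tsc22d3* were also highest of their group in this mouse, with 57.1 and 274.3 TPM.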

How the results depend on the processing

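The 21 differences of the members were recomputed under 30 alternatives, and 594 of 618 values kept their direction; none of the 24 reversed values had an adjusted p under 0.05, and the cause was not tested. Reversed values were, for *Zbtb16* between the days, -0.018 with a pseudocount of 1 and -0.27 with array quality weights; for *Fkbp5* between the days, -0.061 with array quality weights; for *Nr3c1* at day 1, 0.11 with the tubular score; for *Tsc22d3* between the days, -0.065 with the tubular score; and with the endothelial score at day 5, 0.010 for *Tsc22d3* and 0.31 for *Zbtb16*. Leaving out 1 library at a time, the reversing differences ranged at day 1 from -0.12 to 0.032 (*Nr3c1*), -0.0081 to 0.40 (*Nr3c2*), -0.62 to 0.019 (*Tsc22d3*) and -1.41 to 0.42 (*Zbtb16*). At day 5 they ranged from -0.70 to 0.017 (*Hsd11b1*) and -0.25 to 0.060 (*Tsc22d3*). Between the days they ranged from -0.23 to 0.65 (*Fkbp5*), -0.11 to 0.043 (*Nr3c1*), -0.079 to 0.57 (*Tsc22d3*) and -1.13 to 0.71 (*Zbtb16*). The number of members called stayed 0 under the other alternatives, was 1 (*Sgk1*) at day 5 by the adjusted p alone, and was 0 to 1 (*Hsd11b1*) between the days with 1 library left out. Pairs past an adjusted p of 0.05 numbered 4, 1 to 4 with 1 library left out, 0 without the 3 libraries highest in *Fkbp5* and 2 without scaling.

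Same-numbered libraries did not deviate together (12 pairs, r from -0.056 to 0.091, none over 0.1), so the numbers do not pair the mice. With the replicate number as a block, *Sgk1* at day 5 had a log2 fold change of 0.42 (adjusted p = 0.0565), *Tsc22d3* at day 5 had 0.051, and 149, 348 and 331 genes were called over all genes in place of 13, 460 and 259. Depth is unknown, so no counting error could be given for any member.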

Other observations

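Genes around the receptor also varied among mice of a group. The deviations of 10 of 14 chaperones and cochaperones correlated with those of *Tsc22d3* at an r above 0.6, and 7 of 14 with those of *Nr3c1*, against 0 of 14 for *Fkbp5*. *Ptges3*, the p23 cochaperone, had an r of 0.81 with *Tsc22d3*, and *Hsp90ab1* an r of 0.74 with *Nr3c1*. *Tsc22d1*, a relative of *Tsc22d3*, had an r of 0.91 with it, and the coactivator gene *Ncoa3* an r of 0.88. With *Fkbp5*, r was -0.84 to -0.17 over 5 leukocyte markers, lowest for *Ptprc* and with -0.80 for *Lyz2*, and -0.78 (*Pdgfrb*) to 0.35 (*Serpine2*) over 6 mesangial markers, with a median of -0.13. These values describe 13 libraries and were picked from the lists after they were seen.

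A fit with the score of *Fkbp5*, *Tsc22d3* and *Zbtb16* as a covariate called 7 genes at day 1. It called 471 at day 5 and 279 between the days. The main fit called 13, 460 and 259.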
